A study of Arabidopsis thaliana with 6 samples.

Results

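The JAZ (JASMONATE ZIM-DOMAIN) repressors are a family of Arabidopsis thaliana proteins, and 10 of their genes were followed here, out of 33602 genes in the deposited table: JAZ1, JAZ2, JAZ3, JAZ5, JAZ6, JAZ7, JAZ8, JAZ9, JAZ10 and JAZ12. They were taken by gene identifier (AT1G19180, AT1G74950, AT3G17860, AT1G17380, AT1G72450, AT2G34600, AT1G30135, AT1G70700, AT5G13220 and AT5G20900 in the same order), and all 10 had a read count in each of the 6 libraries. JAZ proteins bind transcription factors of the MYC type and recruit the corepressor TOPLESS, either through the adaptor NINJA or through a motif of their own, and so keep jasmonate target genes silent. When a plant is wounded it makes jasmonoyl-isoleucine, which joins JAZ proteins to the F-box receptor COI1 and sends them to the proteasome. JAZ genes are themselves MYC targets, so their transcripts accumulate during a jasmonate response and form a negative feedback loop, and JAZ transcript levels in leaves are used as a readout of that response.

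RNA came from the aerial tissue of 18-day-old plants, and ribosomal RNA was removed before sequencing. With 1 library each, the genotypes were the single mutants ein5-1 and ski2-3, the double mutant that carries both alleles, the single mutant rdr6-11, the triple mutant of all 3 alleles, and the wild type Col-0. EIN5 (also XRN4) is a cytoplasmic exonuclease that degrades decapped mRNA from the 5′ end, SKI2 is the helicase that feeds mRNA to the exosome from the 3′ end, and RDR6 copies RNA into double-stranded RNA for small interfering RNAs. All mutants are compared with the same Col-0 library, so these comparisons share its error. The number of plants behind a library is not stated. Fewer cells of a type cannot be told apart from less RNA per cell.

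The libraries held 20205663 to 33100379 reads, of which 10942840 to 16593256 fell on nuclear genes. The share of nuclear reads on ribosomal RNA genes was 0.335% to 2.71% in the mutants and 19.2% in Col-0. In rdr6-11 and the triple mutant 81.9% and 81.5% of the counts from 1 to 20 were even, against 38.4% to 41.5% in the other libraries, so counting intervals are too narrow there if the 2 reads of a pair were counted separately. Each mutant had less transcript of the genes it is mutated in: log2 ratios to Col-0 were -1.05, -0.60 and -1.26 for EIN5 in ein5-1, the double and the triple mutant, -0.68, -0.43 and -0.78 for SKI2 in ski2-3, the double and the triple mutant, and -1.76 and -1.53 for RDR6 in rdr6-11 and the triple mutant. In the double mutant this depended on the scaling. By total nuclear counts, by all reads including those on organelle genes, and by RPKM, EIN5 stood at -0.13, -0.24 and -0.25 there. SKI2 then stood at 0.05, -0.06 and -0.08. By total nuclear counts without ribosomal and transfer RNA genes, EIN5 and SKI2 stood at -0.39 and -0.22 in the double mutant. By median-of-ratios size factors they stood at -0.59 and -0.42. On the scale of the first ratios, these genes ran from -0.47 (RDR6 in ein5-1) to 0.30 (EIN5 in ski2-3) in mutants without their alleles. Summed over 4 leaf markers (RBCS1A, RCA, LHCB1.1 and CA1) the level was 6078 to 25884 CPM (counts per 1000000 nuclear reads), and over 5 floral markers (AP3, PI, AG, SEP3 and AP1) 1.66 to 4.41. The 7 root markers, up to 2 of them at 0, summed to 446 to 696 CPM, nearly all of it PYK10, a beta-glucosidase, with 5290 of 5325 reads in ein5-1 and 5820 of 5850 in Col-0.

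Levels are given in CPM after scaling by the trimmed mean of M-values (TMM), and differences as log2 ratios of these with the 95% interval that the 2 counts allow. A gene counts as measured in a comparison where 1 of the libraries had at least 100 reads, and a 2-fold ratio is the size used to count differences. There is no test, because no genotype has a second library to show the replicate error. Other scalings were tried: by total nuclear counts (total nuclear scaling), by that total without ribosomal and transfer RNA genes, by all reads including those on organelle genes (organelle-inclusive scaling), by median-of-ratios size factors, by TMM without ribosomal and transfer RNA genes, and by RPKM. JAZ8 and JAZ10 never reached 100 reads, so at most 8 of the 10 genes were measured in any comparison, and JAZ7 dropped out of some.

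JAZ9, with JAZ6 next, led the JAZ transcripts in 5 of the 6 libraries. On the authors' RPKM scale, which corrects for gene length, JAZ9 had an RPKM of 26.6 in ein5-1, 55.3 in ski2-3, 41.6 in rdr6-11, 41.4 in the triple mutant and 47.8 in Col-0. In the double mutant it had an RPKM of 11.6 and stood behind JAZ12 (22.2), JAZ2 and JAZ6 (13.5). Its share of the summed JAZ RPKM was 14.3% in the double mutant, against 28.0% in ein5-1, 31.8% in ski2-3, 27.5% in rdr6-11, 31.4% in the triple mutant and 32.95% in Col-0. This share is taken within a library and does not depend on scaling between libraries. JAZ12, whose protein depends on the ubiquitin ligase KEG for its stability, made up 27.5% in the double mutant and 12.8% in Col-0. Low levels were found for JAZ8, JAZ10 and JAZ3, with RPKM of 0.214 to 1.67, 0.475 to 1.85 and 1.35 to 3.75 over the 6 libraries. The summed JAZ RPKM was 94.9 in ein5-1, 173.8 in ski2-3, 80.7 in the double mutant, 151.4 in rdr6-11, 131.9 in the triple mutant and 145.2 in Col-0. In TMM-scaled CPM, the scale used from here on, the 10 genes summed to 401.4 in ein5-1, 880.4 in ski2-3, 289.5 in the double mutant, 668.1 in rdr6-11, 561.1 in the triple mutant and 682.0 in Col-0, so rdr6-11 lay above Col-0 on the first scale and just below it on the second.

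**Figure D1:**
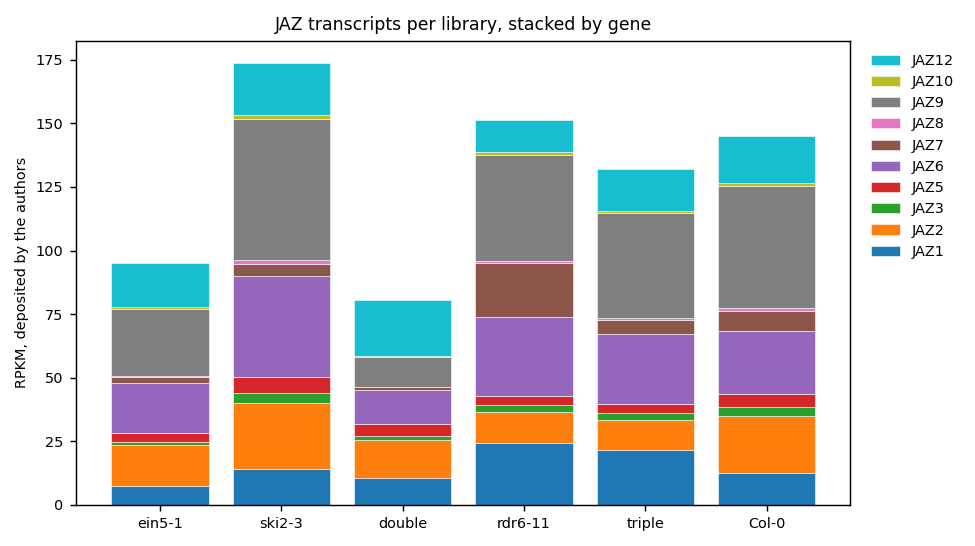
RPKM values deposited by the authors for the 10 JAZ genes, stacked within each library (1 library per genotype; double is ein5-1 ski2-3, triple is rdr6-11 ein5-1 ski2-3). The double mutant has the smallest sum, 80.7, and the smallest JAZ9 block, 11.6, while ski2-3 has the largest sum, 173.8.

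The related genes JAZ1, JAZ2, JAZ5 and JAZ6 encode repressors that are degraded through COI1. JAZ1, among the first members shown to be degraded in response to jasmonate, had 23.1 CPM in ein5-1, 53.7 in ski2-3, 29.4 in the double mutant, 87.3 in rdr6-11, 69.4 in the triple mutant and 45.1 in Col-0. The 2 libraries with rdr6-11 were the highest for JAZ1 and the 2 other libraries with ein5-1 the lowest. JAZ2, known for its role in guard cells, had 63.5 in ein5-1, 119.9 in ski2-3, 51.6 in the double mutant, 54.6 in rdr6-11, 47.1 in the triple mutant and 98.8 in Col-0. Unlike its closest relative JAZ1, it was low in both libraries with rdr6-11. JAZ5 had 12.7 in ein5-1, 27.1 in ski2-3, 14.3 in the double mutant, 15.5 in rdr6-11, 13.6 in the triple mutant and 20.7 in Col-0. JAZ6 had 92.0 in ein5-1, 221.9 in ski2-3, 56.2 in the double mutant, 164.3 in rdr6-11, 131.8 in the triple mutant and 132.1 in Col-0. Both JAZ5 and JAZ6 were highest in ski2-3, and they parted in the double mutant, which was the lowest library for JAZ6 and not for JAZ5.

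JAZ3 and JAZ9 form another related pair, JAZ3 being the gene of the jasmonate-insensitive mutant jai3 and JAZ9 a partner of DELLA proteins, the repressors of gibberellin signalling. JAZ3 had 9.22 CPM in ein5-1, 30.2 in ski2-3, 10.7 in the double mutant, 19.7 in rdr6-11, 19.3 in the triple mutant and 25.4 in Col-0. JAZ9 had 127.9 in ein5-1, 314.4 in ski2-3, 48.9 in the double mutant, 225.8 in rdr6-11, 202.5 in the triple mutant and 258.0 in Col-0. Both were high in ski2-3 and Col-0 and low in ein5-1 and the double mutant, and JAZ9 was lower in the double mutant than in ein5-1 while JAZ3 was not.

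JAZ7 and JAZ8 are short members that lack the canonical degron and bind TOPLESS directly. JAZ7 had the widest range, with 4.19 CPM in ein5-1, 8.90 in ski2-3, 1.38 in the double mutant, 39.0 in rdr6-11, 8.85 in the triple mutant and 13.9 in Col-0. The counts behind these were 50, 95, 27, 502, 139 and 129 reads in the same order, so rdr6-11 stood far above the rest and ski2-3 and the triple mutant could not be ranked. JAZ8 had 4 reads in ein5-1, 33 in ski2-3, 6 in the double mutant, 20 in rdr6-11, 20 in the triple mutant and 23 in Col-0. JAZ10, whose splice forms are known to differ in their response to jasmonate, had 30 reads in ein5-1, 94 in ski2-3, 33 in the double mutant, 78 in rdr6-11, 40 in the triple mutant and 48 in Col-0, with all forms counted together. JAZ12 was the steadiest, with 66.1 CPM in ein5-1, 92.5 in ski2-3, 75.0 in the double mutant, 54.2 in rdr6-11, 64.7 in the triple mutant and 80.4 in Col-0. In the TAIR10.1 gene table JAZ12 overlaps the protein-coding gene AT5G20910, which had 88 to 215 reads, so reads of that pair may have been split between them. JAZ12 also overlaps the long non-coding RNA AT5G03235, and JAZ10 overlaps the long non-coding RNA AT5G02045.

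**Figure D2:**
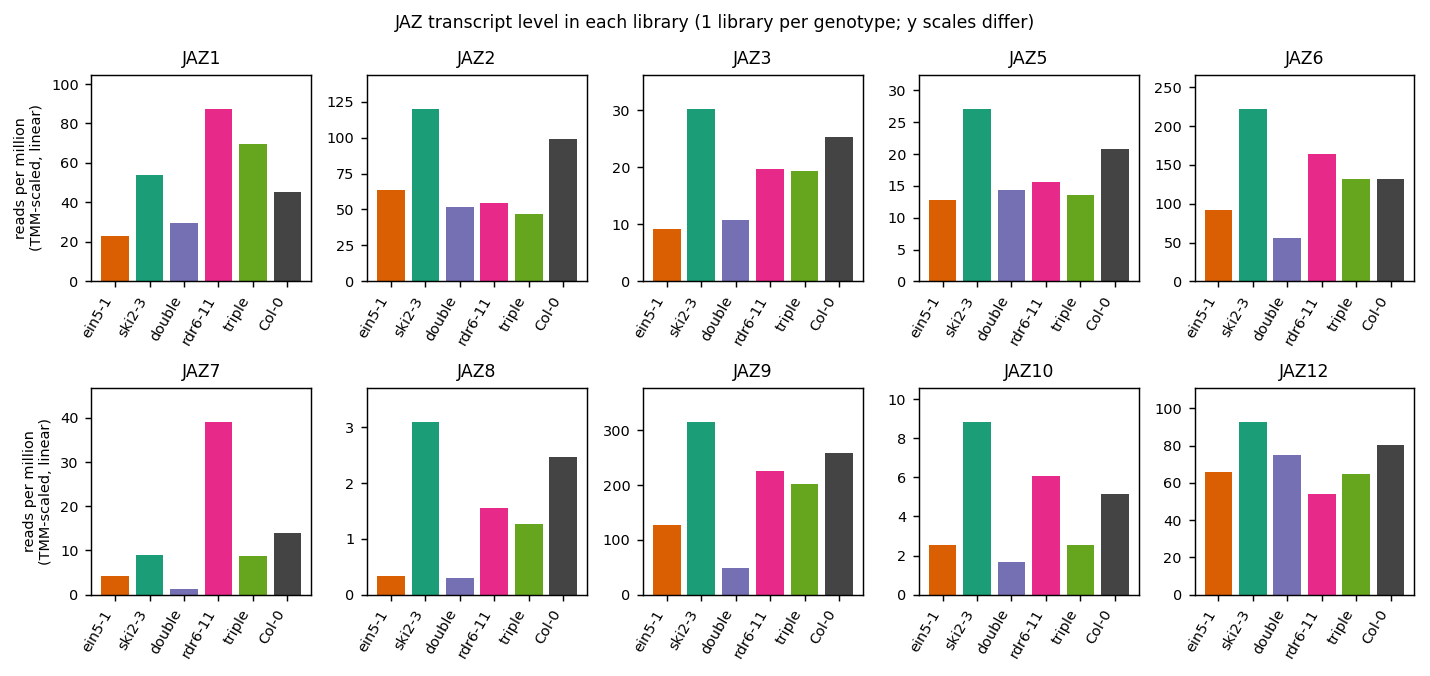
CPM after TMM scaling for each JAZ gene (linear axes from 0 that differ between panels); each bar is 1 library. The ski2-3 bar is the tallest in 8 panels, JAZ1 and JAZ7 peak in rdr6-11 at 87.3 and 39.0, and JAZ12 varies least.

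The highest library exceeded the lowest by 1.71-fold for JAZ12, by 2.12-fold for JAZ5, by 2.54-fold for JAZ2, by 3.26-fold for JAZ3, by 3.78-fold for JAZ1, by 3.95-fold for JAZ6, by 6.42-fold for JAZ9 and by 27.6-fold for JAZ7. These are the 8 members with a mean of at least 100 reads. Over all 13595 genes with that mean the median was 1.80-fold, and 7 of the 8 members lay above it. The ski2-3 library was the highest for 8 of the 10 genes, and for 6 of those 8, while 15.4% of the 13595 genes were highest there. JAZ12 was instead highest in the double mutant under 2 of the other scalings of the counts, and by RPKM. JAZ1 and JAZ7 were highest in rdr6-11. The double mutant was the lowest for 5 members (JAZ6, JAZ7, JAZ8, JAZ9 and JAZ10), ein5-1 for 3 (JAZ1, JAZ3 and JAZ5), the triple mutant for JAZ2 and rdr6-11 for JAZ12. For JAZ8 the lowest rests on 6 reads in the double mutant against 4 in ein5-1, and 4 other scalings, RPKM among them, put ein5-1 lowest. Of the 8 members with a mean of at least 100 reads, 3 were lowest in the double mutant and 3 in ein5-1, against 30.5% and 8.1% of the 13595 genes.

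Loss of EIN5 alone came with lower JAZ transcript levels. All 8 measured members had negative log2 ratios to Col-0, and 3 were at least 2-fold lower: JAZ7 at -1.72 (-2.23 to -1.24), JAZ3 at -1.46 (-1.80 to -1.13) and JAZ9 at -1.01 (-1.11 to -0.92). At least 2-fold lower ratios were found for 2.03% of the 12987 genes measured in this comparison. JAZ7 was measured only through Col-0, here, in ski2-3 and in the double mutant. The others were JAZ1 at -0.97 (-1.19 to -0.75), JAZ5 at -0.70 (-1.02 to -0.39), JAZ2 at -0.64 (-0.78 to -0.50), JAZ6 at -0.52 (-0.64 to -0.40) and JAZ12 at -0.28 (-0.43 to -0.14). The signs were negative for these 8 under every scaling tried, and JAZ9 lost its call, at -0.74 to -0.85, under total nuclear, organelle-inclusive and RPKM scaling. Among the genes below the read minimum, JAZ8 had 4 reads against 23 in Col-0 (-2.75, -4.87 to -1.33) and JAZ10 30 against 48 (-1.02, -1.74 to -0.35).

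Loss of SKI2 alone came with JAZ levels slightly above Col-0, except for JAZ7. Of the 8 measured members 7 had positive log2 ratios, led by JAZ6 at 0.75 (0.65 to 0.85) and JAZ5 at 0.38 (0.12 to 0.66). JAZ9 stood at 0.29 (0.21 to 0.36), JAZ2 at 0.28 (0.15 to 0.40), JAZ1 and JAZ3 at 0.25 and JAZ12 at 0.20. JAZ7 stood at -0.64 (-1.04 to -0.25), with 95 reads in ski2-3 and 129 in Col-0. None of the 8 reached 2-fold, a size found for 3.45% of the 12520 genes measured. JAZ10 had 94 reads in ski2-3 and 48 in Col-0 (0.77, 0.26 to 1.31).

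Setting the single mutants against each other leaves out the Col-0 counts, though the TMM factors were taken against Col-0. In ein5-1 against ski2-3 all 7 measured members were lower in ein5-1, 5 of them at least 2-fold: JAZ3 at -1.71 (-2.04 to -1.39), JAZ9 at -1.30 (-1.39 to -1.21), JAZ6 at -1.27 (-1.38 to -1.17), JAZ1 at -1.22 (-1.43 to -1.01) and JAZ5 at -1.09 (-1.38 to -0.80). Of the 13119 genes measured, 3.29% were at least 2-fold lower. JAZ2 stood at -0.92 and JAZ12 at -0.49. Under organelle-inclusive and RPKM scaling 3 members were at least 2-fold lower.

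Loss of both decay factors came with the lowest levels of several members, and not of others. In the double mutant against Col-0, JAZ7 stood at -3.30 (-3.99 to -2.72), with 27 reads against 129, and JAZ9 at -2.40 (-2.51 to -2.29), with 959 reads against 2401. JAZ3 at -1.25 (-1.52 to -0.97) and JAZ6 at -1.23 (-1.35 to -1.12) were also at least 2-fold lower, so 4 of the 8 measured members were, and 7.92% of the 15068 genes measured were at least 2-fold lower. JAZ2 stood at -0.94 (-1.07 to -0.81), JAZ1 at -0.62 (-0.80 to -0.43), JAZ5 at -0.53 (-0.80 to -0.26) and JAZ12 at -0.10 (-0.23 to 0.03). Under total nuclear, organelle-inclusive and RPKM scaling, JAZ3 and JAZ6 came to between -0.76 and -0.90 and the count to 2, and JAZ12 turned positive, at 0.25 to 0.37 (0.11 without ribosomal and transfer RNA genes in the total). Below the read minimum, JAZ8 had 6 reads against 23 (-2.87, -4.60 to -1.68) and JAZ10 33 against 48 (-1.59, -2.30 to -0.95). The 4 leaf markers summed to 6078 CPM in the double mutant, 16761 in ein5-1, 14612 in ski2-3 and 10324 in Col-0. Their part in the JAZ values was not tested.

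**Figure D3:**
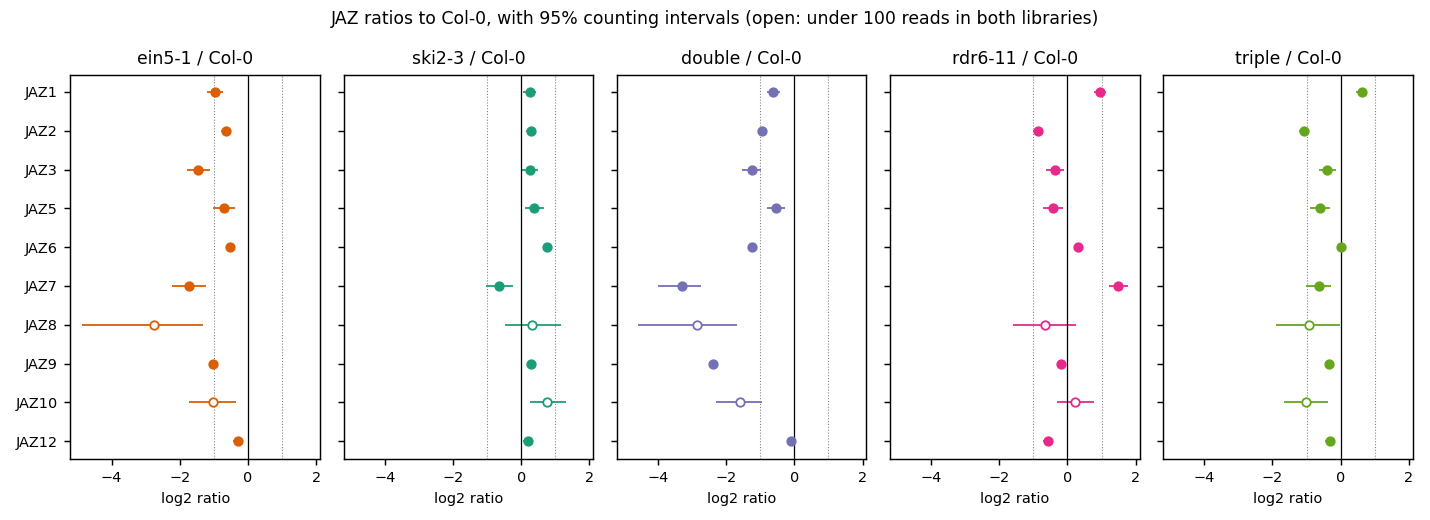
Log2 ratio of each JAZ gene to Col-0 in the 5 mutants, with the 95% counting interval as bars; dotted lines mark 2-fold and open points have under 100 reads in both libraries. In ein5-1 all points lie left of 0, in ski2-3 only JAZ7 does, and in the double mutant JAZ7 and JAZ9 lie farthest left of the measured genes, at -3.30 and -2.40.

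Against each single mutant the double mutant differed in unlike ways. Relative to ski2-3, all 7 measured members were lower in the double mutant, 4 of them at least 2-fold, namely JAZ9 (-2.68, -2.79 to -2.58), JAZ6 (-1.98, -2.09 to -1.88), JAZ3 (-1.50, -1.76 to -1.24) and JAZ2 (-1.21, -1.33 to -1.09), while 7.10% of 15093 measured genes were at least 2-fold lower. JAZ2 came to between -0.78 and -0.93 under total nuclear scaling (with and without the ribosomal and transfer RNA genes), organelle-inclusive and RPKM scaling. JAZ12, at -0.30, turned to 0.01 to 0.13 under the same scalings, total nuclear scaling with those genes excepted. Relative to ein5-1, the same double mutant had JAZ9 lower at -1.38 (-1.50 to -1.27), the only one of 7 measured members past 2-fold, beside 6.56% of 15084 genes. JAZ6 stood at -0.71 (-0.83 to -0.59) and JAZ2 at -0.30, while JAZ1 (0.35, 0.14 to 0.56), JAZ3 (0.21), JAZ12 (0.18) and JAZ5 (0.17) had positive ratios. JAZ7 was not measured there, with 27 reads in the double mutant and 50 in ein5-1.

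JAZ9 and JAZ6 were lower in the double mutant than the sum of the single-mutant ratios. JAZ9 departed from that sum by -1.67 (approximate interval -1.81 to -1.53) and JAZ6 by -1.46 (-1.61 to -1.30). These 2 of 8 measured members departed downward by at least 2-fold, as did 8.98% of the 15193 genes measured. JAZ7 departed by -0.94 (-1.72 to -0.17) and JAZ2 by -0.58 (-0.76 to -0.39). JAZ1 (0.10), JAZ12 (-0.02), JAZ3 (-0.04) and JAZ5 (-0.21) lay near the sum, with intervals that hold 0, and the last 3 turned positive under organelle-inclusive and RPKM scaling and without ribosomal and transfer RNA genes in the total. Each departure carries the variation of 4 libraries. The 4 leaf markers departed downward by at least 2-fold as well (3 or 4 of them over the scalings), with a median of -1.99, and in the double mutant against ein5-1 their median was -1.53. Their part in the JAZ departures was not tested.

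**Figure D4:**
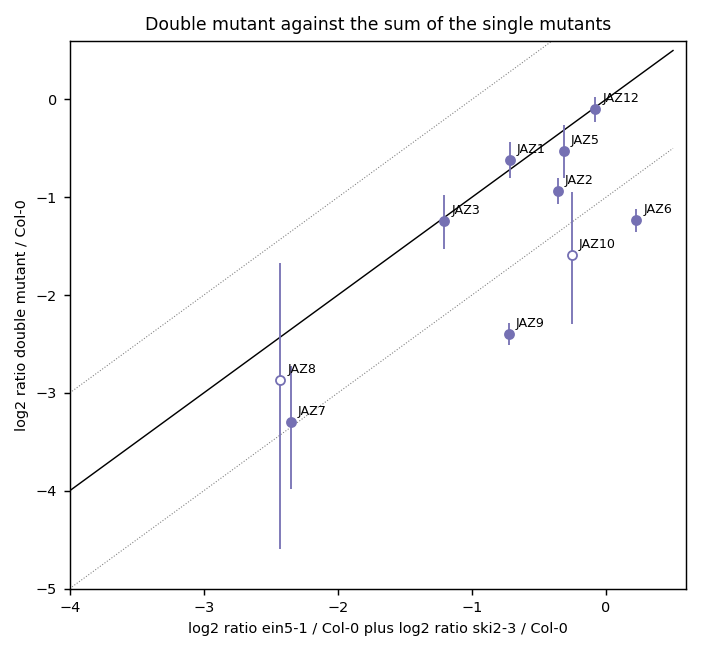
Log2 ratio of the double mutant to Col-0 (y axis, with 95% counting intervals) against the sum of the ein5-1 and ski2-3 log2 ratios (x axis); the solid line is equality, dotted lines mark 2-fold, and open points have under 100 reads in each of the 4 libraries. JAZ9 and JAZ6 lie below the lower dotted line among the measured genes, and JAZ1, JAZ3 and JAZ12 lie on or near the solid line.

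In rdr6-11 the members went separate ways. JAZ7 was 1.49 (1.21 to 1.78) above Col-0 on the log2 scale, with 502 reads against 129, and JAZ1 stood just under 2-fold at 0.95 (0.79 to 1.12), with 1124 reads against 420. JAZ7 was the only one of 8 measured members at least 2-fold higher, beside 4.72% of the 13300 genes measured, and under total nuclear scaling JAZ1 passed as well (1.16), for a count of 2. JAZ2 stood at -0.86, JAZ12 at -0.57 (-0.72 to -0.42), JAZ5 at -0.42, JAZ3 at -0.37 and JAZ6 at 0.31 (0.21 to 0.42). JAZ9 stood at -0.19 (-0.27 to -0.11), and at 0.01 under total nuclear scaling. The clock markers differed between these libraries too: all 5 morning genes (CCA1, LHY, RVE8, PRR9 and PRR7) were at least 2-fold higher and 5 of 6 evening genes (TOC1, ELF4, LUX, GI, PRR5 and ELF3) lower in rdr6-11 than in Col-0, where 5.68% of all measured genes were lower. Summed over the morning genes the level was 193.5 CPM in rdr6-11 and 205.2 in the triple mutant, against 19.0 to 23.5 in the other 4 libraries, and over the evening genes 137.6 and 121.7, against 401.5 to 453.8. CCA1, LHY, RVE8 and PRR9 had at most 19 reads in each library without rdr6-11, so they were measured only through the libraries with it. ELF4 and LUX were measured only through libraries without it. CCA1 and PRR9 had 0 reads in ein5-1 and ELF4 0 in the triple mutant, where 0 allows up to 0.251 and 0.191 CPM at 3 reads. The part of these clock differences in the JAZ values was not tested.

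Between the triple mutant and rdr6-11 no measured clock marker was past 2-fold. Against rdr6-11 the triple mutant had lower JAZ7 and otherwise like JAZ levels. JAZ7 had 139 reads in the triple mutant and 502 in rdr6-11, a log2 ratio of -2.13 (-2.42 to -1.87), and 0.274% of the 14234 genes measured were at least 2-fold lower. The other 7 measured members lay between -0.33 (JAZ1, -0.45 to -0.21) and 0.25 (JAZ12, 0.11 to 0.40), with JAZ6 at -0.32, JAZ2 at -0.21, JAZ5 at -0.20, JAZ9 at -0.16 and JAZ3 at -0.03. JAZ3 turned to 0.02 to 0.14 under total nuclear scaling (with and without the ribosomal and transfer RNA genes), organelle-inclusive and RPKM scaling, and JAZ9 to 0.01 under organelle-inclusive scaling. JAZ10 had 40 reads against 78 (-1.24, -1.84 to -0.68), below the read minimum. Against Col-0, the triple mutant had JAZ2 at -1.07 (-1.21 to -0.93), the 1 member of 8 at least 2-fold lower, beside 4.61% of 14307 genes, and JAZ1 at 0.62 (0.46 to 0.79). JAZ6 was level with Col-0, with 131.8 CPM in the triple mutant and 132.1 in Col-0, and stood at 0.14 to 0.25 under total nuclear, organelle-inclusive and RPKM scaling. Under these, JAZ2 came to between -0.81 and -0.93 and the count to 0.

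Loss of RDR6 on top of both decay mutations came with higher levels of 4 members. In the triple against the double mutant JAZ7 stood at 2.65 (2.08 to 3.34), JAZ9 at 2.05 (1.94 to 2.15), JAZ1 at 1.24 (1.09 to 1.39) and JAZ6 at 1.23 (1.12 to 1.34). These were 4 of 8 measured members, and 12.2% of the 15642 genes measured were at least 2-fold higher. JAZ7 was measured here only through the triple mutant, and fell below the read minimum with the counts of rdr6-11 and the triple mutant halved. JAZ6 came to 0.99 without ribosomal and transfer RNA genes in the total. JAZ3 stood at 0.85 (0.60 to 1.12), JAZ5 at -0.08, JAZ2 at -0.13 and JAZ12 at -0.21 (-0.33 to -0.10). JAZ8 had 20 reads in the triple mutant and 6 in the double mutant. The clock markers differ in this comparison as they do between rdr6-11 and Col-0, with all 5 morning genes at least 2-fold higher and 5 of 6 evening genes lower (10.8% of all measured genes were). All 4 leaf markers were at least 2-fold higher too, with a median of 1.82 and sums of 25849 CPM in the triple mutant and 6078 in the double mutant. The part of either list in the JAZ values was not tested.

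Outside the 10 genes, the remaining JAZ genes had few reads. JAZ11, a relative of JAZ12, had 144 reads in ein5-1, 114 in ski2-3, 283 in the double mutant, 113 in rdr6-11, 135 in the triple mutant and 101 in Col-0. Log2 ratios of JAZ11 to Col-0 stood at 0.15 for ein5-1 and 0.41 for the double mutant, where the members above had negative ones. JAZ13 had 26 reads in rdr6-11 and 36 in the triple mutant, against 3 to 7 in the other libraries, and JAZ4 had 2 to 10 reads in each library. The other genes with a TIFY motif (PPD1, PPD2, ZIM, ZML1, ZML2 and TIFY8) had 3 to 5 of 6 measured in the comparisons with Col-0, none of them past 2-fold (at most 1 under another scaling, in the double mutant).

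Few genes of jasmonate perception were past 2-fold of Col-0 with TMM scaling, all of them MYC factors. Of 10 measured genes for the receptor complex, its transcription factors and their antagonists, 1 was at least 2-fold lower in ein5-1, MYC2 (-1.26), the master regulator of the response, beside 2.03% of all measured genes. MYC4, a relative of MYC2, was the only one at least 2-fold higher in the double mutant (1.08), beside 7.74%. In rdr6-11 MYC3 was at least 2-fold lower (-1.53), beside 5.68%, and in the triple mutant MYC2 (-1.74) and MYC3 (-1.10), beside 4.61%. Over the scalings these counts ran from 0 to 1 for ein5-1, from 1 to 3 for the double mutant, and from 1 to 2 for both rdr6-11 and the triple mutant. The receptor gene COI1 stood at 0.23 in ein5-1, -0.20 in ski2-3, 0.63 in the double mutant, -0.04 in rdr6-11 and 0.08 in the triple mutant. Under total nuclear scaling COI1 passed 2-fold in the double mutant. All 8 corepressor genes, among them NINJA and TPL, were within 2-fold of Col-0 in all 5 mutants, with list medians of 0.01, 0.13, 0.27, -0.14 and -0.20 in that order. The medians for ein5-1, rdr6-11 and the triple mutant change sign with the scaling, and at most 1 of the 8 passed 2-fold under another scaling, in the double mutant.

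Genes of jasmonate synthesis and breakdown were low where JAZ genes were low in the decay mutants. The median log2 ratios to Col-0 in ein5-1, ski2-3 and the double mutant were -0.83, 0.26 and -1.08 for the measured JAZ members, beside 0.05, 0.02 and 0.02 for all measured genes. The same medians were -0.82, 0.58 and -0.94 for 13 synthesis genes, with 6 lower in ein5-1, among them the lipoxygenase LOX4 (-2.22) and OPR3 (-1.39), and 5 lower in the double mutant. They were -1.13, 0.96 and -1.80 for the breakdown genes, enzymes that hydroxylate or cleave jasmonates, of which 7, 8 and 7 were measured. In ein5-1 4 of these were at least 2-fold lower and in the double mutant 5, with JOX4 at -1.49 and -3.48. JOX4 had 47 and 19 reads in these libraries and CYP94C1 97 and 84, so both were measured there only through Col-0. Of all measured genes, 2.03% were at least 2-fold lower in ein5-1 and 7.92% in the double mutant. Over the scalings the breakdown counts ran from 2 to 4 in ein5-1 and from 4 to 5 in the double mutant, and the synthesis count in the double mutant from 3 to 5. In ski2-3 3 were higher (JOX4 at 1.75, JOX3 at 1.58 and ST2A at 1.57), where no JAZ member was past 2-fold and 2.15% of all measured genes were at least 2-fold higher. Over the scalings 3 to 5 breakdown genes and 0 to 3 synthesis genes were at least 2-fold higher there. In rdr6-11 and the triple mutant 3 and 4 of 13 synthesis genes were at least 2-fold lower than in Col-0, and 6 of 7 breakdown genes in each. The shares of all measured genes were 5.68% and 4.61%. JOX3, JOX4 and ST2A had 6, 14 and 30 reads in rdr6-11 and were measured there only through Col-0. The same held for JOX4 and ST2A in the triple mutant, with 12 and 74 reads.

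Among the comparisons with Col-0, the medians of the JAZ genes and of the jasmonate targets lay farthest apart in rdr6-11. There all 7 measured targets were at least 2-fold lower than Col-0, with a median of -3.28, beside 5.68% of all measured genes. Among them were PDF1.2 (-7.33), a defensin, and VSP1 (-4.17), a vegetative storage protein. PDF1.2, VSP1 and TAT3 had 13, 22 and 74 reads in rdr6-11 and were measured only through Col-0. The JAZ median was -0.28, and JAZ7 and JAZ1 stood at 1.49 and 0.95. In the triple mutant against rdr6-11, 7 of 8 targets were at least 2-fold higher (median 1.75), beside 1.15% of all measured genes, and the JAZ median was -0.21. PDF1.2, VSP1, TAT3 and JMT were measured in that comparison only through the triple mutant. Against Col-0, 3 of 7 targets were lower in ein5-1, 5 of 7 in the double mutant and 4 of 8 in the triple mutant. The shares of all measured genes at least 2-fold lower were 2.03%, 7.92% and 4.61%, in the same order. TPS04, a target with 51 reads in the double mutant, was measured there only through Col-0. In ski2-3, 3 of 8 targets were higher, beside 2.15% of all measured genes. The ein5-1 count ran from 2 to 4 over the scalings. PDF1.2 has near-identical copies that can share reads.

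Wound and touch genes, which respond within minutes and have unstable transcripts, were low in ein5-1, as JAZ genes were, and more of them than of the JAZ genes were at least 2-fold higher in the double mutant than in ein5-1. Of 14 such genes, 11 were at least 2-fold lower in ein5-1 than in Col-0, beside 2.03% of all measured genes. Their median was -1.89, with summed levels of 523 CPM in ein5-1 and 1190 in Col-0 over the 14 genes. RRTF1, ERF13, ORA47 and ZAT12 had 24, 21, 39 and 70 reads in ein5-1 and were measured there only through Col-0. In the double mutant against ein5-1, 8 of 13 were at least 2-fold higher with a median of 1.32 (6.12% of all measured genes were), among them ORA47 (2.61) and CAF1A (1.95), while 4 of 7 measured JAZ genes had positive ratios within 2-fold, the JAZ median was 0.17 and JAZ9 was at least 2-fold lower. ORA47, RRTF1 and ZAT12 were measured in that comparison only through the double mutant. In ski2-3, 4 of 14 were at least 2-fold lower than in Col-0 (RRTF1, ERF13, ORA47 and ZAT12; 3 to 6 over the scalings), beside 1.30% of all measured genes, and JAZ7 was the only measured JAZ member with a negative ratio. RRTF1, ERF13 and ORA47 had 67, 66 and 70 reads in ski2-3 and were measured there only through Col-0. Against Col-0, 5 of 14 were at least 2-fold lower in the double mutant (3 to 5 over the scalings), beside 7.92% of all measured genes. In rdr6-11 4 were higher and 4 lower, beside 4.72% and 5.68%. In the triple mutant 3 were higher and 5 lower, beside 870 and 660 of the 14307 genes measured. Whether the wound and touch genes have a part in the JAZ values was not tested.

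**Figure D5:**
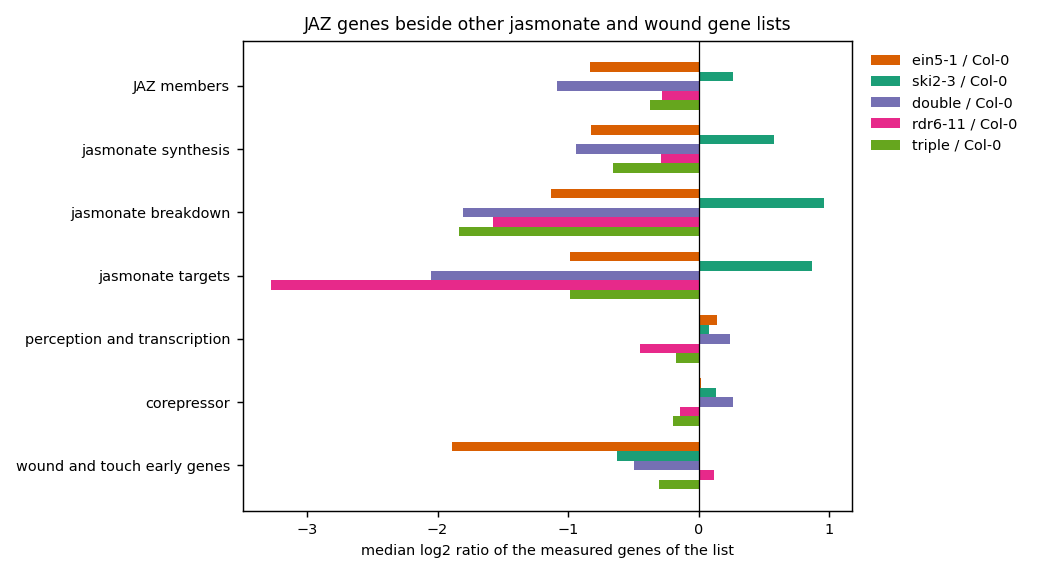
Median log2 ratio to Col-0 of the measured genes in the JAZ family and 6 other lists, in the 5 mutants (bars; 1 library per genotype). The JAZ and synthesis medians are alike in ein5-1 (-0.83 and -0.82), perception and corepressor medians lie near 0, and the targets reach -3.28 in rdr6-11.

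Within the family, closely related genes did not always vary together across the 6 libraries. Pearson's r of log2 levels was 0.84 for JAZ3 and JAZ9, 0.74 for JAZ7 and JAZ8, 0.67 for JAZ5 and JAZ6, and -0.04 for JAZ1 and JAZ2. Values with JAZ8 rest on 4 to 33 reads per library, below the read minimum. Less related pairs reached higher values, with 0.99 for JAZ3 and JAZ8, 0.96 for JAZ6 and JAZ9 and 0.91 for JAZ2 and JAZ5. JAZ12 with JAZ7 had -0.37. All pairs share the same 6 libraries and their scaling. The mean profile of the 8 members with a mean of at least 100 reads, centred on 0, was -0.53 in ein5-1, 0.60 in ski2-3, -0.91 in the double mutant, 0.43 in rdr6-11, 0.04 in the triple mutant and 0.38 in Col-0. Of 13587 other genes, the nearest to it were AT2G40460, DFL2 (of the GH3 family of hormone-conjugating enzymes), GSTU13 (a glutathione transferase), VTC5 (an enzyme of ascorbate synthesis) and TAAC (a thylakoid ADP/ATP carrier), at a root mean square distance of 0.10 to 0.16 in log2, against a median distance of 0.62. Among the members JAZ6 (0.18) and JAZ3 (0.23) lay nearest to the mean profile and JAZ7 (1.04) farthest. The members are part of that mean and the other genes are not. The mean was higher in rdr6-11 than in Col-0, though 5 of 8 measured members had negative log2 ratios there (median -0.28). JAZ7 stood at 1.49 in that comparison. These distances rest on 6 libraries and on a search of many genes.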

How the data were processed

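One table of the series was used, with 6 libraries and 33602 genes. Its read counts per gene were deposited by the authors, and all 170136 count cells with a number were whole numbers. The 31476 count cells that hold #N/A were taken as 0. The RPKM values and the log2 ratios of RPKM were also deposited by the authors, and these ratios equal those of the RPKM columns. The submitters' processing notes name BWA and TAIR9. In the sources used here the counting program and its use of strand are not given. The deposited p-values and false discovery rates were not used.

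Libraries were scaled by TMM on 33323 nuclear genes (numpy 2.4.6, trims of 0.3 and 0.05), and the 4 ribosomal and 623 transfer RNA genes were left out afterwards. Ratios used a pseudocount of 0.5. Their 95% intervals are exact conditional binomial (Clopper-Pearson, scipy 1.17.1), except for departures, where the interval is a normal approximation. Intervals, and the floor of 3 reads for a count of 0, cover counting error only and hold no replicate error. PCR reads are not independent molecules, so the intervals can be too narrow for counting error as well. The calculation was tested on simulated data. Names came from the TAIR10.1 gene table, which matched 32835 identifiers. Its positions served only to find genes that overlap the members. The members and gene lists were chosen with earlier results of these data known. Named genes are the members, list genes past 2-fold or listed by name, and the 5 genes of nearest profile. Alternatives covered scaling, pseudocount, read minimum and halved counts of the rdr6-11 libraries. The comparison of the single mutants, and TMM without ribosomal and transfer RNA genes, were added after seeing the data.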

Additional observations from a re-analysis of the deposited data

Results flagged for a closer look

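JAZ9 had opposite directions for loss of SKI2 in different backgrounds: its log2 ratio was 0.29 for ski2-3 against Col-0, and -1.38 for the double mutant against ein5-1. It was also opposite for loss of RDR6, at -0.19 for rdr6-11 against Col-0 and 2.05 for the triple against the double mutant. The first of these stood at 0.01 with scaling by total nuclear counts. Each background has 1 library per genotype, so neither difference was tested.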

How the results depend on the processing

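All differences rest on 1 library per genotype, and Col-0, with its high ribosomal RNA share, enters each comparison with the wild type. Of 898 values of single members recomputed under 10 alternatives, 736 stayed within their counting interval, 162 moved and 0 members past 2-fold changed sign. With total nuclear counts, all log2 ratios to Col-0 moved up by 0.27 in ein5-1, 0.19 in ski2-3, 0.47 in the double mutant, 0.21 in rdr6-11 and 0.26 in the triple mutant, and the share of higher genes among those past 2-fold came to 74.4%, 85.6%, 87.1%, 64.3% and 76.7%, against 42.0%, 62.3%, 49.4%, 45.4% and 56.9% with TMM. Without ribosomal and transfer RNA genes in the total, the ratios moved by -0.02, -0.11, 0.21, -0.08 and -0.03, in the same order. With total nuclear counts, the number of JAZ members past 2-fold of Col-0 was 2 in place of 4 for the double mutant. It was 2 in place of 1 for rdr6-11 and 0 in place of 1 for the triple mutant. Under organelle-inclusive and RPKM scaling it was 2 for the double and 0 for the triple mutant against Col-0, and 3 in place of 5 for ein5-1 against ski2-3. With a read minimum of 20, and with no read minimum, JAZ8, JAZ10 or JAZ7 joined: the count was 5 in place of 3 for ein5-1 and 2 in place of 1 for the triple mutant against Col-0, 8 for ein5-1 against ski2-3, 2 in place of 1 for the double mutant against ein5-1, 7 in place of 4 for it against ski2-3, and 2 in place of 1 for the triple mutant against rdr6-11. The other counts of JAZ members stayed within 1.5 times. Of the other lists against Col-0, counts moved further over the scalings for breakdown genes lower in ein5-1 (2 to 4) and higher in ski2-3 (3 to 5), synthesis genes lower in the double mutant (3 to 5) and higher in ski2-3 (0 to 3), wound and touch genes lower in the double mutant (3 to 5), and perception genes in each mutant but ski2-3, by 1 or 2 genes. In the double mutant corepressor, target, leaf and other TIFY genes moved by 1 gene. No paired analysis was possible because each genotype has 1 library and the labels give no replicate numbers. Depth limits JAZ8 and JAZ10, which had at most 33 and 94 reads.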
